A study of Mus musculus with 22 samples.

Results

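Splicing factors and heterogeneous nuclear ribonucleoproteins (hnRNPs) were followed at the mRNA and the ribosome footprint level in mouse neural stem cells in which the Musashi RNA-binding proteins Msi1 and Msi2 were induced or deleted. The genes were chosen by name alone, as every gene of the footprint tables whose symbol begins with Srsf or Sfrs and a digit, Snrp, Sf3a, Sf3b, Prpf, U2af, Hnrnp or Hnrp. This gave 68 of 23081 genes, namely 12 SR proteins, 12 Sm and other snRNP proteins, 8 subunits of SF3A and SF3B, 13 PRPF proteins, 3 U2AF proteins and 20 hnRNPs. Of these, 65 had an entry in the RNA-Seq files and 62 had reads there.

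Introns are removed from pre-mRNA by the spliceosome, a particle assembled from small nuclear ribonucleoproteins (snRNPs). Most of these snRNPs carry a ring of Sm proteins around their RNA. U2AF binds the end of the intron, the SF3A and SF3B complexes of the U2 snRNP hold the branch point, and the PRPF proteins act in the U4/U6 and U5 snRNPs and in the catalytic steps. SR proteins mostly promote and hnRNPs often restrict the use of nearby splice sites. Neural progenitors and neurons splice many transcripts differently, and these proteins are among those that set the pattern. Musashi proteins, which are abundant in neural stem cells, bind RNA motifs with a UAG core, chiefly in 3′ untranslated regions (UTRs).

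Cortical neural stem cells had been isolated from 129SvJae embryos at E12.5 or E13.5 and grown with EGF, bFGF and laminin. KH2 cells carried the R26-m2rtTA transactivator without a Musashi transgene, and tetO-Msi1 and tetO-Msi2 cells also carried the respective cDNA in the Col1a1 locus, so that doxycycline (Dox, 1 µg/ml for 72 h) induced it. C1 and C4 cells were floxed for both Msi1 and Msi2 and were given 4-hydroxytamoxifen (4-OHT, 48 h). C4 carried the tamoxifen-activated recombinase CreER and C1 carried no Cre, so that C1 with 4-OHT was the control for the agent. RNA-Seq covered each line with and without its agent at E12.5 and, at E13.5, KH2 without Dox and tetO-Msi1 with and without Dox. Ribosome profiling (Ribo-Seq) was available at E12.5 for all of these lines but tetO-Msi2, again with and without the agent. Each condition was 1 library, apart from 2 technical replicates of untreated tetO-Msi1 at E13.5 that were counted as 1 sample. Tests therefore used lines or stages as repeats. Their p-values in edgeR rest largely on a spread between those libraries that was shared over genes, not on each gene's own spread. For Dox mRNA in tetO-Msi1 and for Dox footprints it was taken wholly from the value shared over genes.

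RNA-Seq libraries held 7889966 to 60791605 counted reads, of which 1.19% to 1.67% fell in the splicing genes, and Ribo-Seq libraries held 657288 to 6381242. Of the counted footprints 0.282% (untreated KH2) to 2.36% (untreated C1) fell in the splicing genes. Without the 10 highest genes of each library the share was 1.20% to 2.51%, and 1.26% in untreated KH2. Levels are given below as RPKM recomputed from the counts with TMM library scaling (scaled RPKM), because the deposited RPKM were scaled differently between series of libraries. Msi1 mRNA went from 129 to 701 scaled RPKM with Dox in tetO-Msi1 cells at E12.5, counting the transgene, and Msi2 from 153 to 824 in tetO-Msi2 cells. In C4 cells, 4-OHT was followed by lower Msi2 mRNA, 13.54 scaled RPKM after 123,, whereas Msi1 mRNA read 29.5 before and 28.1 after, and which Msi1 exons are deleted is not given in the sources used here. Msi1 footprints in these C4 libraries read 22.1 TMM-scaled CPM before and 9.52 after. This CPM divides counts by library totals adjusted with TMM scaling, so it is not a share of the counted footprints. Footprint CPM given below are scaled in the same way. Summed neural stem cell markers read 12041 to 17071 scaled RPKM in every library, against 0.678 to 4.90 for 11 mesenchyme, blood and vessel markers, of which 3 to 5 were listed at 0 in a set of libraries. Vim and Fabp7 made up most of the stem cell sum (7345 and 7245 in untreated C1), so it does not show the other markers of that list. In such bulk samples, fewer cells of a type and less RNA per cell cannot be told apart.

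Several of these genes have processed pseudogenes or close paralogs, and short reads from them can match several places. The coding exons listed in the footprint tables were cut into all overlapping stretches of 30 bases (30-mers), close to the length of a footprint, and each was looked up in the mm9 (NCBIM37) genome on both strands. More than 50% of the 30-mers occurred at a second place for 26.5% of the 68 splicing genes and for 14.1% of 22697 genes. Of genes with more than 100 footprints in untreated C1 cells, 187 were listed at 0 in all RNA-Seq libraries and 99.5% of those were mostly repeated, compared with 7.48% of 6031 genes that had RNA-Seq reads.

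Hnrnpa1, Hnrnpa3 and Snrpg belonged to the genes listed at 0 in every RNA-Seq library, and all of their 30-mers were repeated. A 30-mer from each, and from 3 genes whose footprints were highest relative to their mRNA, is shown as an example of such sequence. All bases shown are repeated, so none is capitalised, and the places are counted over the genome:
Hnrnpa1, chr15:103074406-103074435, plus strand, 14 places: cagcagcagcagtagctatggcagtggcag
Hnrnpa3, chr2:75500572-75500601, plus strand, 31 places: taattgtgaagtgaaaaaggccctttctaa
Snrpg, chr6:86326529-86326558, plus strand, 5 places: gggctttgatccctttatgaaccttgtgat
Hnrnpf, chr6:117874055-117874084, plus strand, 7 places: attgggtgttgaagcacagtggtccaaaca
Srsf3, chr17:29173238-29173267, plus strand, 5 places: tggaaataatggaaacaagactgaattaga
U2af1, chr17:31784958-31784987, minus strand, 4 places: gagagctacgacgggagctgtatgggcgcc

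The last 3 sequences come from genes that did have RNA-Seq reads although 97.8%, 98.9% and 97.1% of their 30-mers were repeated. Hnrnpa1, an abundant hnRNP that binds exonic and intronic silencers, had 522 to 13483 footprints per library. Srsf2, Srsf11 and Snrpe had no RNA-Seq entry and were not analysed here at the mRNA level.

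In untreated cells at E12.5 the hnRNPs were the most abundant group, with 9 of the 10 highest genes by mean deposited RPKM over the 5 lines. Hnrnpa2b1, a nuclear and cytoplasmic RNA carrier, ranked first by that mean. It read 1359 scaled RPKM in KH2, 1265 in tetO-Msi1, 1279 in tetO-Msi2, 1440 in C1 and 1661 in C4. Hnrnpab, Hnrnpu, Hnrnph1, Hnrnpd, Hnrnpa0, Hnrnpk, Hnrnpl, Snrpd3 and Hnrnpc followed in the mean. In C1 Hnrnpab was higher than Hnrnpa2b1, with 52163 reads over 587 bases against 47828 over 580. Hnrnpk binds C-rich sequence, Hnrnpc, which binds uridine tracts, is a core particle protein, and Snrpd3 is part of the Sm ring. Srsf12 was the lowest gene with reads and stayed between 3.76 and 7.85 scaled RPKM in the 13 conditions.

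Musashi induction was compared first at the level of mRNA. With Dox in tetO-Msi1 cells at both stages, 1 of 62 tested splicing genes rose and 0 fell, against 3.6% of 11938 genes called in either direction (1.78% up, 1.82% down; edgeR quasi-likelihood test, Benjamini-Hochberg adjusted over all genes). That gene was Sf3b3, a large scaffold subunit of SF3B, which rose by 0.53 ± 0.15 on the log2 scale (SE, adjusted p = 0.022, edgeR). The spread in this test was the value shared over genes, so the p does not measure how Sf3b3 itself varied between stages. Sf3b3 mRNA went from 50.5 to 69.1 scaled RPKM at E12.5 and from 95.5 to 146 at E13.5. In KH2 cells, which have no transgene, it read 53.5 without and 54.8 with Dox, and in tetO-Msi2 cells 48.3 and 60.4. The log2 change of Sf3b3 in the pairs that carried a transgene was 0.46 (95% counting interval 0.36 to 0.56), 0.69 and 0.35, and in KH2 it was -0.01 (-0.10 to 0.08). The call did not hold with DESeq2, without the stage block, or after the KH2 response was subtracted, where the log2 change was 0.54, 0.55 and 0.51. Without adjustment, p was under 0.05 for 6 of the 62 and for 1752 of all 11938 genes.

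When KH2, tetO-Msi1 and tetO-Msi2 at E12.5 were used as repeats of Dox, edgeR called 0 of 62 splicing genes, against 0.451% of 11969 genes (0.159% up, 0.292% down). Before adjustment 10 of the splicing genes had a p under 0.05, against 1654 of all 11969 genes, and DESeq2 also called 0. The estimate is the change shared by lines with and without a Musashi transgene. Leaving out KH2 gave 5 calls, all upward, in Snrpb, Hnrnph3, Sf3b3, Srsf1 and Hnrnpa2b1 (log2 changes of 0.34 to 0.39). Those names were chosen after their values were seen. Leaving out tetO-Msi1 gave 1 call, Snrpf, with a log2 change of 0.75 and an adjusted p of 0.00015. The share of all genes called with a line left out is not given here, so these counts are no result about the splicing genes as a group.

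Snrpf, the Sm F subunit, differed most between lines. With Dox its mRNA went from 147 to 275 scaled RPKM in tetO-Msi2 and from 129 to 194 in KH2, whereas it went from 126 to 101 in tetO-Msi1 at E12.5 and from 208 to 174 at E13.5. The log2 change was 0.93 (0.73 to 1.14) in tetO-Msi2 and 0.55 (0.33 to 0.77) in KH2, and -0.31 (-0.62 to -0.009) and -0.18 (-0.29 to -0.07) in the tetO-Msi1 pairs. These intervals cover counting error only, and 78.9% of the 30-mers of Snrpf were repeated.

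Within single pairs, changes past 1.5-fold in deposited RPKM (0.5 added to each value) were few. In KH2 there were 0 of 61, against 0.944% of all genes (0.472% in each direction), and in tetO-Msi1 at E12.5 0 of 61, against 3.38% (1.68% upward, 1.7% downward). In C1 there were 0 of 62, against 1.43% (0.731% upward, 0.703% downward), and in C4 0 of 62, against 5.97% (3.92% upward, 2.05% downward). In tetO-Msi1 at E13.5, 2 of 62 were higher with Dox (8.22% of all genes past the limit, 5.81% upward and 2.41% downward), Sf3b3 and Srsf4. Srsf4, an SR protein, read 178 scaled RPKM without Dox and 265 with it, a log2 change of 0.66, and it went from 128 to 137 at E12.5. In tetO-Msi2, 3 of 62 were higher (3.08% of all genes, 2.05% upward and 1.03% downward). These were Snrpf, Snrpc, a U1 snRNP protein that went from 108 to 168 scaled RPKM, and Srsf3, which rested on 36 and 76 reads.

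**Figure D1:**
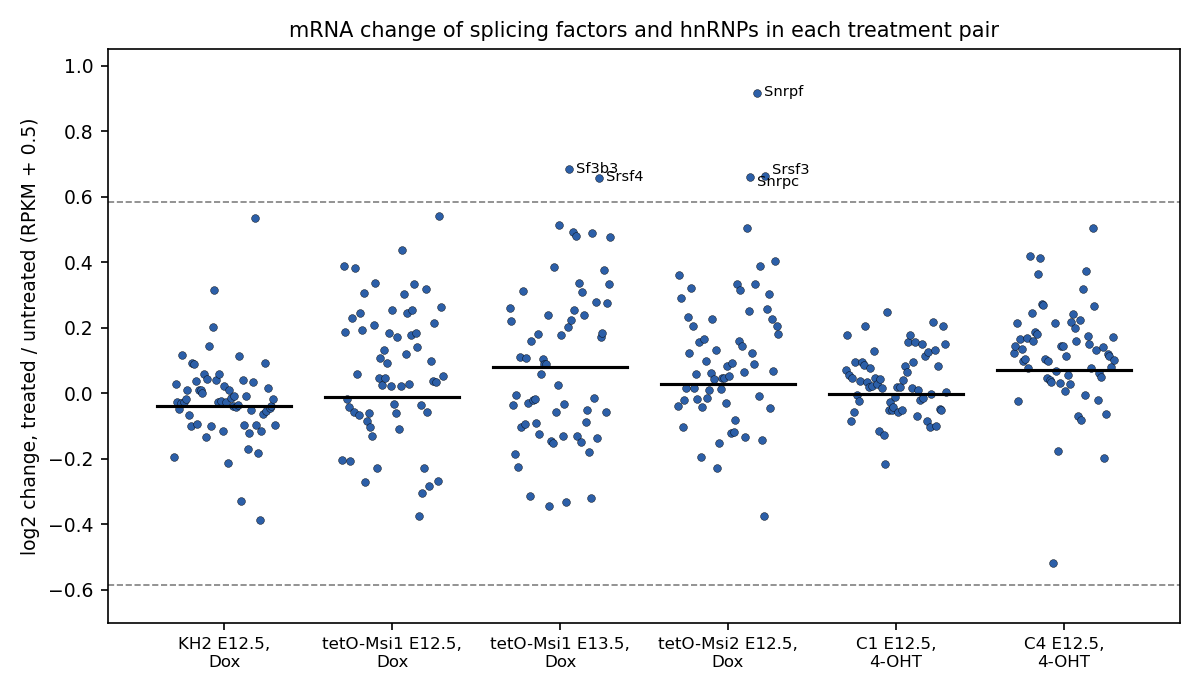
Log2 change of mRNA (deposited RPKM with 0.5 added, treated over untreated library of the same line and stage) in the 6 treatment pairs, with 1 point for each splicing factor or hnRNP. Black bars mark the median of all genes, dashed lines mark 1.5-fold, and the 5 named points are the only ones past that limit.

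For deletion, edgeR called 0 of 62 splicing genes for 4-OHT over C1 and C4, against 5.5% of 11626 genes (3.14% up, 2.36% down). The estimate is the change shared by the line with and the line without Cre, not the deletion itself. Without adjustment 10 of the 62 were under 0.05, against 2281 of all 11626 genes, and DESeq2 also called 0. With no filter on low counts 4 were called, Snrpb, Snrpf and Hnrnpl upward and Prpf39 downward. The share of all genes called without the filter is not given here. Of 7 proliferation markers, 5 rose with 4-OHT in the same libraries (median log2 change 0.69), and their part in these values was not tested.

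Few splicing genes were called in ribosome footprints either. For Dox in KH2 and tetO-Msi1, edgeR called 0 of 61 splicing genes (0.566% of 7242 genes, 0.318% up and 0.249% down), and DESeq2 called 0. Before adjustment 1 had a p under 0.05, against 383 of all 7242 genes. The estimate is the change shared by both lines. A change in tetO-Msi1 alone is averaged with KH2, which has no Musashi transgene, so the test says little about Msi1 induction itself. For 4-OHT, 1 of 65 rose and 0 fell (1.27% of 9239 genes, 1.09% up and 0.173% down). That gene was again Snrpf, at 121 CPM without and 201 with 4-OHT in C1 and at 215 and 355 in C4, a log2 change of 0.72 ± 0.15 (SE, adjusted p = 0.014). C1 lacks Cre, and the change was seen in both lines. With DESeq2 or without the line block Snrpf was not called (log2 change 0.72 and 0.73).

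Translational efficiency (TE) was the ratio of the deposited footprint RPKM to the deposited mRNA RPKM. The lengths behind these RPKM differed between the assays, for example 2983 bases for footprints and 693 for mRNA in Prpf4b. For Prpf3 they were 599 and 1452. How the mRNA length was defined is not given in the sources used here, so TE levels are not strictly comparable between genes. In the model over both assays, edgeR called 0 of 55 splicing genes for Dox (0.0155% of 6442 genes) and 0 of 59 for 4-OHT (0.0% of 8255 genes). At an unadjusted p under 0.05 there were 0 splicing genes for Dox (232 of all 6442 genes) and 6 for 4-OHT (744 of all 8255 genes). Each estimate is a change shared by lines with and without a Musashi transgene or Cre, not the effect of induction or deletion alone. DESeq2 called 0 for Dox and 1 for 4-OHT. That gene was Hnrnpm, a regulator of exon skipping, with a log2 change of -1.31 ± 0.28 (SE, DESeq2 adjusted p = 0.0023). Its footprints numbered 266 and 44 in C1 and 65 and 18 in C4, over only 132 bases of listed coding exon, and edgeR gave -1.30 with an adjusted p of 0.55.

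In single pairs, a change in TE past 3-fold was seen for 0 of 56 splicing genes in KH2 (1.1% of all genes, 0.631% upward and 0.473% downward). In tetO-Msi1 it was seen for 1 of 56, upward (1.29% of all genes, 1.04% upward and 0.25% downward), and in C4 for 1 of 59, downward, which was Hnrnpm (2.6%, 0.693% upward and 1.9% downward). In C1, which has no Cre, 30 of 60 were lower (38.5%, 0.109% upward and 38.4% downward). The median over all genes moved by -1.46 on the log2 scale in C1 and that of the splicing genes by -1.58. The deposited footprint RPKM alone moved by -1.45 over all genes. Reads divided by RPKM and length give the totals behind that scaling, about 22.4 M and 20.4 M reads without and with 4-OHT, whereas the counted footprints numbered 6381242 and 2286367. The 30 are read here as no result about the splicing genes. After centring on all genes 0 of the 60 remained past the limit. Among genes with more than 20 footprints in both C1 libraries, Hnrnpr, Hnrnpm and Hnrpll were lowest. Their log2 changes relative to the median of all genes were -1.21, -1.10 and -0.71. Prpf39 and U2af1l4 lay below that number of footprints, with 127 and 13 and with 38 and 7. Their footprint RPKM went from 21.1 to 2.37 and from 38.6 to 7.80, a steeper fall than that of Hnrpll (40.3 to 9.81).

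The 1 gene past the limit in tetO-Msi1 was Prpf3, a U4/U6 snRNP protein. Its TE was 0.124 without and 0.427 with Dox, on 9 and 12 footprints. The log2 change of 1.79 had a counting interval of 0.53 to 3.05. Both are under a limit of more than 20 reads. In KH2 the TE of Prpf3 was 0.300 and 0.238 on 8 and 7 footprints, and in C4 0.101 and 0.0665 on 26 and 16. In C1 it was 0.808 and 0.256 on 214 and 57 footprints, a log2 change of -0.20 relative to the median of all genes. Over KH2 and tetO-Msi1 the edgeR test gave a log2 change in TE of 0.86 ± 0.66 (SE, adjusted p = 1.00) and in footprints of 1.06 ± 0.53 (adjusted p = 0.93). Both of these estimates average tetO-Msi1 with KH2, which has no Musashi transgene, so they do not isolate Msi1 induction. Prpf3 footprints were counted over 599 listed bases in 5 coding exons, and 7 to 214 of them per library limit the precision.

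Prpf3 mRNA was not called with any treatment. It read 28.3 and 36.3 scaled RPKM in tetO-Msi1 at E12.5 and at 50.5 and 50.9 at E13.5 without and with Dox (log2 change 0.18 ± 0.16 (SE), adjusted p = 0.69). It lies on the minus strand of chr3 (95634047 to 95659808), and its 3′ UTR of 695 bases holds 4 matches to the pentamers GTAGT or ATAGT, the DNA letters of UAG-core motifs, on the transcribed strand. The matches are shown because Musashi proteins bind such letters, with the motif in capitals and with transcript-strand bases from NCBIM37:
Prpf3 UTR base 281, chr3:95634445-95634473: cctaggatcctaGTAGTttaagtgtgtaa
Prpf3 UTR base 340, chr3:95634386-95634414: agttttctggagATAGTaagtcagaaagt
Prpf3 UTR base 355, chr3:95634371-95634399: gtaagtcagaaaGTAGTgttaagtggttg
Prpf3 UTR base 563, chr3:95634163-95634191: ggaatcagtaatGTAGTtcaatttccact

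These matches are descriptions of letters, not measured sites. At least 1 match was present in the UTR of 70.1% of 67 splicing genes, 53.8% of 20007 genes and 59.9% of 11873 genes with reads in all RNA-Seq libraries. Per 1000 bases of UTR there were 2.16, 1.42 and 1.44 matches. Prpf3 stood at 5.76 per 1000 bases. U2af1, Hnrnpa3 and Prpf8 stood higher, at 15.5, 8.75 and 6.25, with 2, 4 and 1 matches in UTRs of 129, 457 and 160 bases (chosen after their values were seen).

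The stage comparison set untreated KH2 and tetO-Msi1 at E13.5 against the same lines at E12.5. Splicing genes were mostly higher at E13.5. Of 62 tested, 37 rose and 3 fell, against 50.8% of 11893 genes called in either direction, 25.6% upward and 25.2% downward. The median log2 difference was 0.39 for the splicing genes and 0.01 for all genes. Stage cannot be told apart here from the series of libraries, which also differed in depth. State markers moved as well. In KH2 and tetO-Msi1, Gfap, a glial filament, went from 5.88 and 5.39 to 60.0 and 92.8 scaled RPKM, and Mcm2, a replication factor, from 56.4 and 34.4 to 199 and 179. Of 6 glia markers 2 rose and 2 fell, and of 7 proliferation markers 3 rose and 1 fell, and their part in the stage differences was not tested.

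Among hnRNPs 13 of 18 rose and 0 fell. Hnrnpu, also known as scaffold attachment factor A, had 557 and 479 scaled RPKM at E12.5 in KH2 and tetO-Msi1 and 1201 and 1073 at E13.5, a log2 difference of 1.12 ± 0.10 (SE, adjusted p = 1.3e-05). Hnrnpm went from 271 and 272 to 568 and 563, a difference of 1.04. For both genes the stages did not overlap. SR proteins showed the same direction, with 8 of 10 higher and 0 lower, and their median difference was 0.42.

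Srsf3, the smallest SR protein, led the list with a log2 difference of 1.52 ± 0.26 (SE, adjusted p = 0.00082). It read 8.89 and 9.29 scaled RPKM at E12.5 and 25.02 and 27.7 at E13.5, on 30 to 437 reads. These low values refer to a gene whose sequence is almost wholly repeated. In SF3A and SF3B, 4 of 8 rose and 1 fell. Sf3b4, which binds RNA next to the branch point, read 25.6 and 22.0 at E12.5 and 51.8 and 40.6 at E13.5, a difference of 0.93. Sf3b1, the subunit that grips the branch point adenosine, moved the other way, from 409 and 397 to 291 and 335, a difference of -0.38 ± 0.11 (SE, adjusted p = 0.012).

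Of the PRPF proteins, 7 of 13 rose and 1 fell. Prpf3 had 26.3 and 28.3 scaled RPKM at E12.5 and 42.8 and 50.5 at E13.5, a difference of 0.75 ± 0.12 (SE, adjusted p = 0.0004). Prpf39, a U1 snRNP-associated protein, fell by 0.41, from 62.6 and 80.6 to 40.6 and 70.7, so that its stages overlapped, and it was not called with DESeq2. Sm and other snRNP proteins were split, with 4 of 10 higher, 1 lower and a median difference of 0.08. Snrpf read 129 and 126 at E12.5 and 310 and 208 at E13.5, a difference of 0.97. Snrpb2, the U2 B″ protein, fell by 0.43, from 180 in both lines to 119 and 152. U2AF gave 1 rise of 3. Restricted to the 38 tested genes with at most 10% repeated 30-mers, 24 rose and 2 fell. The share of all genes under the same repeat limit was not computed.

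**Figure D2:**
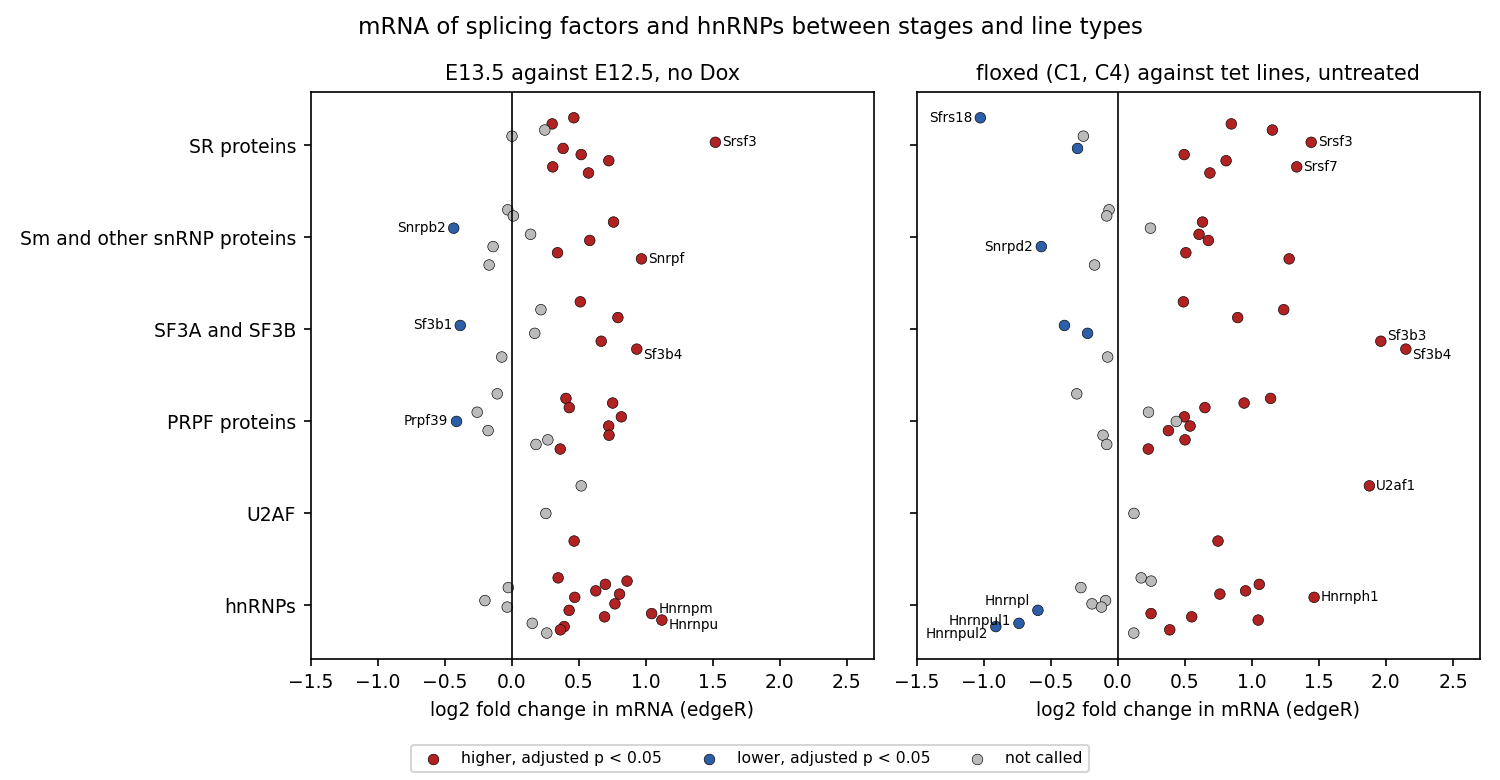
Log2 fold change in mRNA of each splicing factor or hnRNP by role, for E13.5 against E12.5 without Dox (left) and for untreated floxed lines C1 and C4 against the tet-inducible lines (right), 1 point a gene. Red points are called higher, blue points lower and grey points neither; 37 and 35 of 62 are red, 3 and 8 blue.

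The second comparison of levels set untreated C1 and C4 against untreated KH2, tetO-Msi1 and tetO-Msi2, all at E12.5. The KH2 and tetO-Msi1 libraries are the same as the E12.5 side of the stage comparison, so these differences and those between stages are not independent. Of 62 splicing genes 35 were higher in the floxed lines and 8 lower, against 66.3% of 12211 genes called, 33.0% upward and 33.3% downward. The median log2 difference was 0.46, against 0.00 for all genes. Line type and the series of libraries cannot be told apart. The line types also differed in state, since summed glia markers read 1807 to 1989 scaled RPKM in floxed libraries and 859 to 1458 in tet-inducible ones. Of 8 neural stem cell markers 1 was higher and 3 lower. Hes5 read 25.6 and 21.8 scaled RPKM in untreated C1 and C4 against 524 to 807 in the tet-inducible lines. Nes read 474 and 469 against 127 to 237. Of 7 proliferation markers 3 were higher and 4 lower. Untreated, Mki67 read 36.7 and 36.8 in C1 and C4 against 254 to 311, and Myc read 223 and 224 against 19.8 to 29.8. The part of these markers in the differences was not tested.

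Sf3b4 and Sf3b3 had the largest rises. Sf3b4 read 113 and 104 scaled RPKM in C1 and C4 and 25.6, 22.0 and 25.6 in KH2, tetO-Msi1 and tetO-Msi2, a log2 difference of 2.15 ± 0.11 (SE, adjusted p = 2.8e-05). Sf3b3 read 203 and 194 against 53.5, 50.5 and 48.3, a difference of 1.96 ± 0.08. The line types did not overlap for either gene. Sf3b1 read 321 and 312 against 409, 397 and 443, a difference of -0.40 ± 0.10 (SE, adjusted p = 0.010). In all, 5 of 8 SF3A and SF3B genes were higher and 2 lower, and these proteins are subunits of the U2 snRNP.

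U2af1, which reads the AG at the end of the intron, had 27.3 and 39.0 scaled RPKM against 10.6, 7.84 and 8.66, a difference of 1.88 ± 0.24 (SE, adjusted p = 0.00061). Its partner U2af2, chosen here after its values were seen, differed by 0.75. Srsf3 (difference 1.44) and Hnrnph1 (1.46), the latter a binder of G-rich sequence, completed the 5 largest rises. Hnrnph1 read 814 and 902 against 301, 323 and 306. Of the SR proteins 7 of 10 were higher and 2 lower, of the PRPF proteins 8 of 13 higher and 0 lower, and of the Sm and other snRNP proteins 5 of 10 higher and 1 lower.

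The hnRNPs divided, with 8 of 18 higher and 3 lower and a median difference of 0.21. Hnrnpul2, a relative of Hnrnpu, read 190 and 191 scaled RPKM in floxed lines against 337, 340 and 392, a difference of -0.91 ± 0.10 (SE, adjusted p = 0.00038). Hnrnpul1 and Hnrnpl, a binder of CA repeats, were also lower, by -0.74 and -0.60 on the log2 scale. Hnrnpu itself went the opposite way to its relatives, at 1058 and 1006 against 557, 479 and 458. Among SR proteins the largest fall was that of Sfrs18, a protein rich in arginine and serine, at 89.8 and 115 against 175, 212 and 236, a difference of -1.03 ± 0.17 (SE, adjusted p = 0.0019). The Sm protein Snrpd2 differed by -0.57. With at most 10% repeated 30-mers, 20 of 38 genes were higher and 7 lower, and the share of all genes under that limit was not computed.

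**Figure D3:**
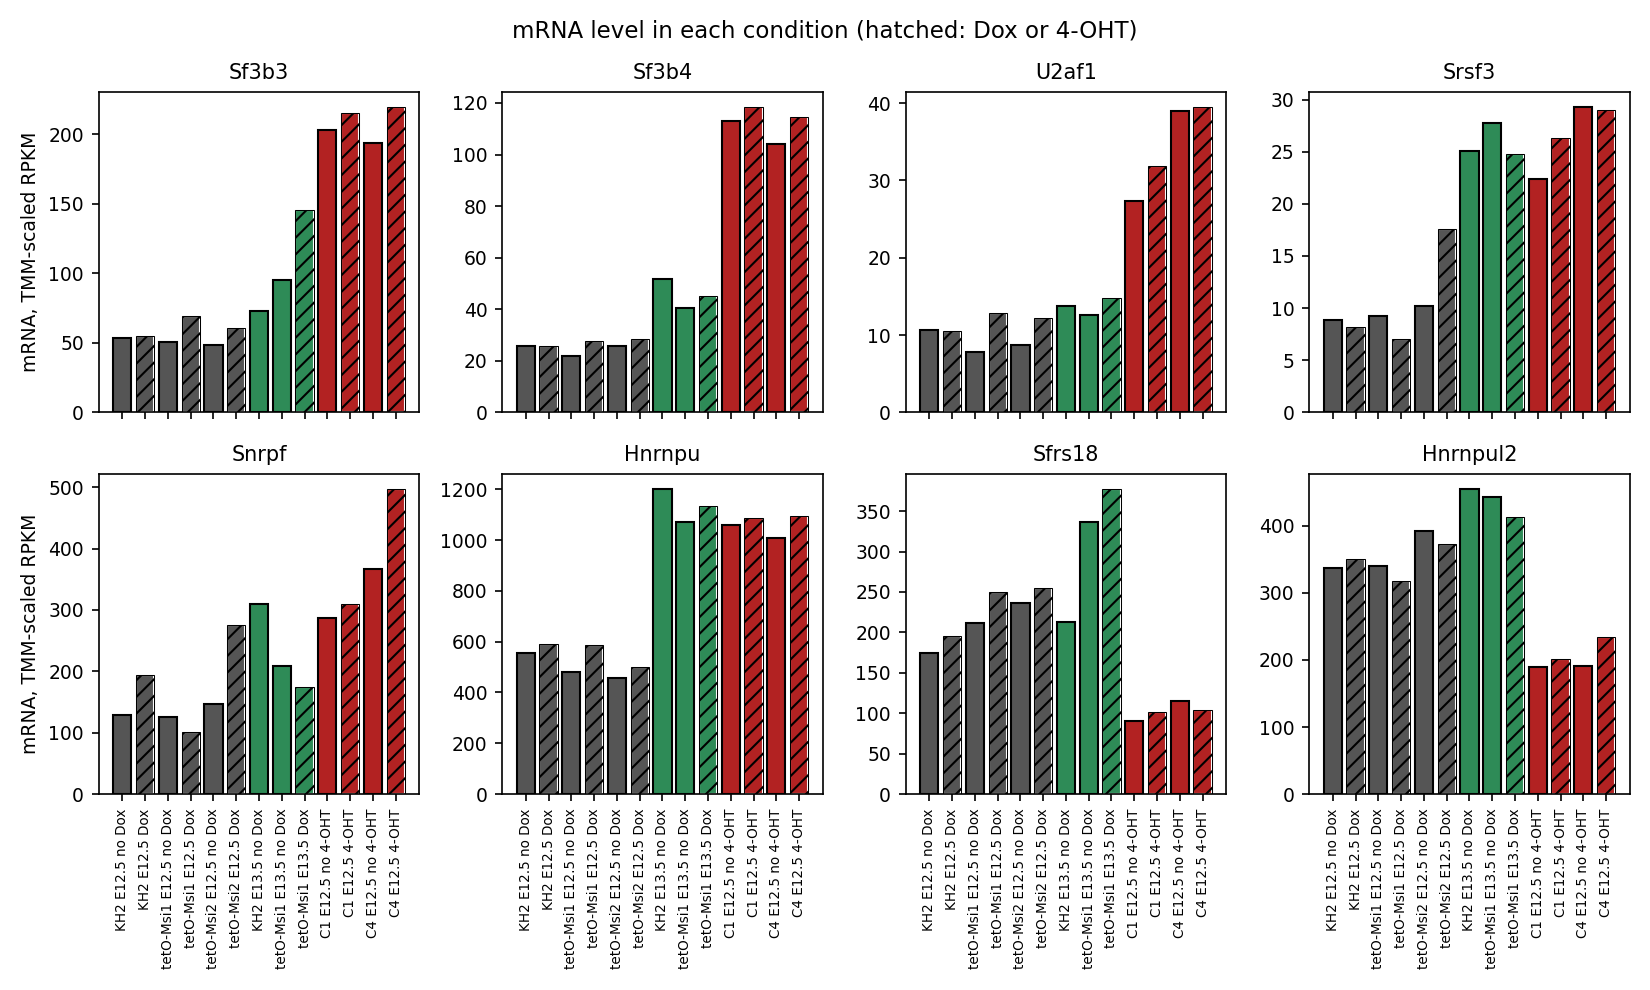
mRNA level of 8 genes in each of the 13 conditions in scaled RPKM, 1 bar a condition without error bars because each is 1 library (the 2 technical replicates are combined), with grey for tet-inducible lines at E12.5, green for E13.5, red for floxed lines and hatching for Dox or 4-OHT. Sf3b3, Sf3b4 and U2af1 were highest in the 4 floxed libraries, Srsf3 and Hnrnpu were high in both E13.5 and floxed libraries, and Sfrs18 and Hnrnpul2 were lowest in floxed libraries.

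Footprints of the same lines gave a second measurement of this difference, from other libraries of C1 and C4 against KH2 and tetO-Msi1. The floxed and the tet-inducible footprint libraries were also separate series, so line type and series cannot be told apart in this assay either. Of 62 splicing genes tested, 33 were higher and 3 lower, against 41.6% of 8039 genes called, 20.7% upward and 20.9% downward. The 36 calls became 23 without tetO-Msi1, 24 without KH2, 32 without C1 and 43 without C4. The share of all genes called with a line left out is not given here. Of the 34 genes with higher mRNA that could be tested, 24 had higher footprints, 32 had a difference above 0 and 0 had lower footprints. Of the 8 with lower mRNA, 3 had lower footprints (Sfrs18, Hnrnpul2 and Hnrnpul1) and 1 higher. Hnrnpul1 was not called without tetO-Msi1 (-0.66).

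Sf3b3 had 361 and 258 CPM of footprints in C1 and C4 against 87.9 and 85.0 in KH2 and tetO-Msi1, and Sf3b4 had 231 and 300 against 61.8 and 79.7. The log2 differences of 1.83 ± 0.24 and 1.86 ± 0.24 (SE) stood close to the mRNA values. Hnrnpul2 footprints read 118 and 127 against 252 and 246. Prpf3 read 23.1 and 10.2 against 7.73 and 3.15 (1.86 ± 0.57 (SE), adjusted p = 0.020), but it was not called without C1 or without tetO-Msi1 (log2 difference 1.11 and 1.17).

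Footprints also reached genes without mRNA values. Hnrnpa1 read 1457 and 1182 CPM against 658 and 615, a log2 difference of 1.03 ± 0.24 (SE, adjusted p = 0.0051), and Hnrnpa3 and Snrpg differed by 1.12 and 1.16. Srsf2, a core SR protein, and Snrpe, an Sm ring protein, differed by 1.88 and 1.25 (chosen after their values were seen). These 5 genes account for those of the 33 higher ones without RNA-Seq reads. All 30-mers of Hnrnpa1, Hnrnpa3, Snrpg and Snrpe were repeated, and reads from their copies cannot be told apart from their own, whereas 0% of those of Srsf2 were.

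A pair of snRNP genes departed from their mRNA. Snrpb2 had the largest footprint difference, 2.39 ± 0.30 (SE, adjusted p = 5.8e-05, edgeR), with 91.2 and 76.0 CPM against 11.6 and 18.2. Its mRNA difference was 0.24 (adjusted p = 0.11, edgeR). Its footprints numbered 844 and 193 in C1 and C4 but only 12 and 52 in KH2 and tetO-Msi1, which limits the precision. Snrpd2 was higher by 0.67 in footprints and lower by 0.57 in mRNA, and 87.5% of its 30-mers were repeated. The difference between the assays was not tested for either.

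**Figure D4:**
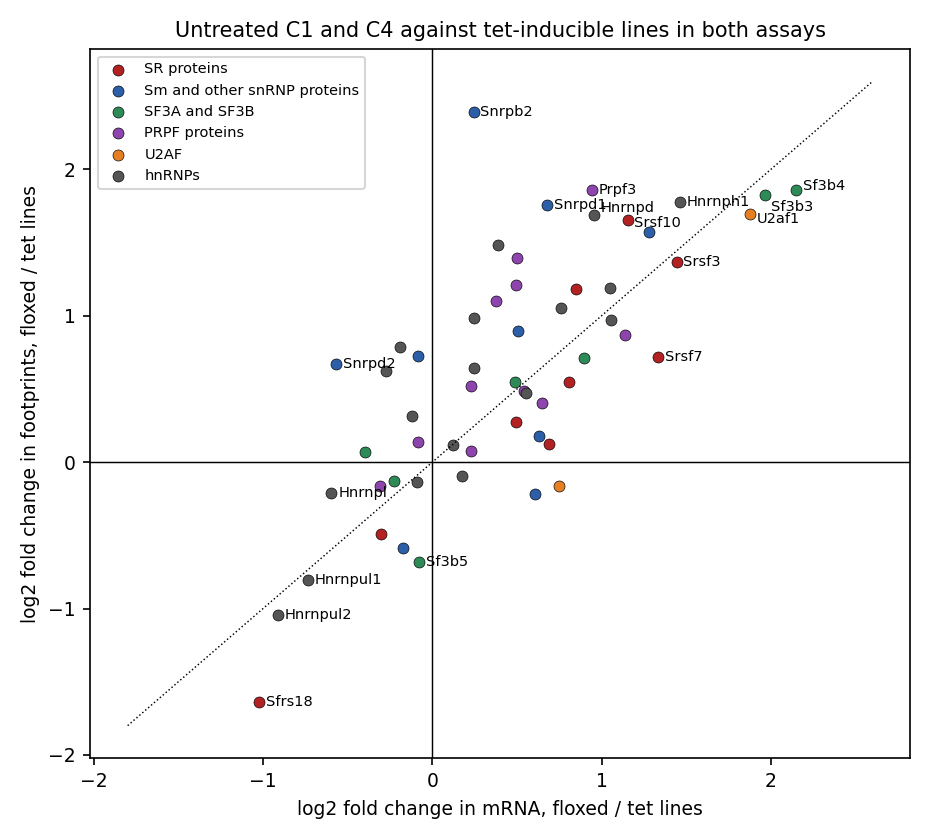
Log2 fold change of each splicing factor or hnRNP between untreated floxed and tet-inducible lines in mRNA (horizontal) and in ribosome footprints (vertical), for the 56 genes tested in both, coloured by role; the dotted line marks equal change. Most points lie in the upper right, Sfrs18, Hnrnpul2 and Hnrnpul1 lie in the lower left, and Snrpd2 lies in the upper left.

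TE levels in untreated cells were compared with the median of all genes in the same library. The median of the splicing genes lay above it by 0.17 on the log2 scale in KH2, 0.16 in tetO-Msi1, 0.49 in C1 and 0.17 in C4, and 61.0% to 75.4% of them were above it. The spread among members was wide, and their order also depends on the differing lengths behind footprint and mRNA RPKM, whose part was not tested. Of the 40 genes with at least 50 footprints in each of the 4 libraries, Hnrnpf led at 5.33 ± 0.10 (SD, n = 4 lines) above the median, followed by Srsf3 at 5.19 ± 0.28, U2af1 at 4.38 ± 0.31, Sf3b4 at 2.22 ± 0.36 and Snrpf at 1.98 ± 0.19. Hnrnpf, Srsf3 and U2af1 held the first 3 places in each of the 4 lines, and Hnrnpf and Srsf3 do not differ beyond their SDs, nor do Sf3b4 and Snrpf.

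The 5 leading genes were also strongly repeated. Hnrnpf, a binder of G-rich sequence with a single coding exon in these tables, had 26.6 RPKM of footprints and 2.55 RPKM of mRNA in KH2, a TE of 10.4. Its RNA-Seq reads numbered 255 there. All 12 of the genes with over 50% repeated 30-mers lay above the median, by 0.62 to 5.33, and their own median was 1.72. The 22 genes with at most 10% repeated 30-mers had a median of -0.005, with 11 of them above 0.

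The same order was seen over all genes with enough footprints, where the median was 0.07 for 1622 genes with at most 10% repeated 30-mers, 0.42 for 212 genes between 10% and 50%, and 2.23 for 208 genes above 50%. Restricted to the members with at most 10%, the splicing genes' median lay 0.22 above that of all genes in C1 and 0.19 below it in C4 (log2 difference of -0.19). The part of repeated sequence in the TE values was otherwise not tested.

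At the low end, all 5 genes had at most 0.504% repeated 30-mers. Hnrnpul1 lay at -1.22 ± 0.21 (SD, n = 4 lines), Hnrnpa0 at -0.88 ± 0.48, Prpf4b, a kinase of the spliceosome, at -0.81 ± 0.47, Srsf4 at -0.64 ± 0.20 and Hnrnpul2 at -0.56 ± 0.16. The TE of Hnrnpul1 was 0.112 in KH2, 0.145 in tetO-Msi1, 0.264 in C1 and 0.0536 in C4, at the percentiles 5.88, 11.2, 15.3 and 7.64 of all genes in its library. Neighbours in this order overlap within their SDs.

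**Figure D5:**
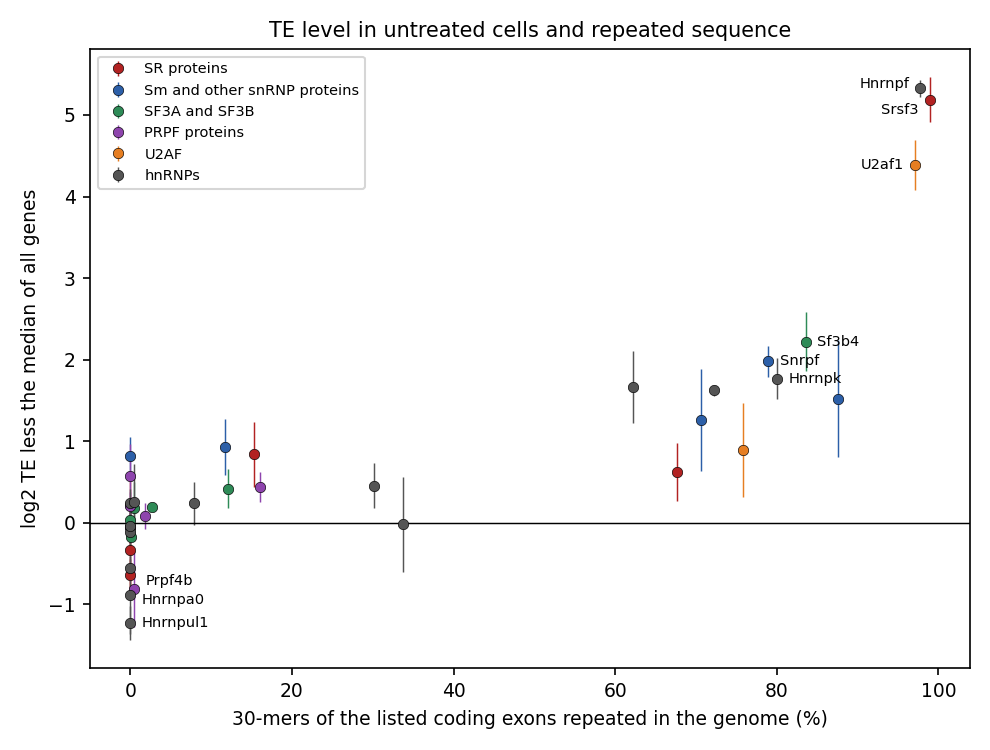
Mean log2 TE less the median of all genes (points; bars are SD over 4 untreated lines) against the percentage of 30-mers of the listed coding exons that occur elsewhere in the genome, for the 40 splicing factors and hnRNPs with at least 50 footprints in each library. Hnrnpf, Srsf3 and U2af1 lie above 4 at over 97% repeated, and the 12 genes over 50% all lie above 0.

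Splicing genes outside the naming rule were taken from 4 lists. At E13.5 against E12.5, where 25.6% of all genes rose and 25.2% fell, 11 of 18 other snRNP proteins rose and 2 fell, and 9 of 25 assembly and catalysis factors rose and 1 fell. Of SR-related proteins and kinases 5 of 16 rose and 1 fell, and of other splicing regulators 13 of 27 rose and 4 fell. The medians were 0.42, 0.14, 0.25 and 0.29. Sart3 and Sart1, which act in tri-snRNP recycling and assembly, rose by 0.99 each (named after their values were seen).

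In floxed against tet-inducible lines, where 33.0% of all genes were higher and 33.3% lower, the same lists gave 9 higher and 2 lower of 18, 10 and 6 of 25, 3 and 4 of 15, and 11 and 8 of 29, with medians of 0.23, 0.24, -0.01 and 0.01. Treatments moved few of the listed genes. Over the 4 lists and the tests of mRNA, footprints and TE for Dox or 4-OHT, the calls were Rnps1 with Dox in tetO-Msi1 (mRNA, log2 change 0.74), Rbm22 with Dox in KH2 and tetO-Msi1 (footprints, -1.19) and Qk with 4-OHT (mRNA, 0.34). The footprints of Rbm22 read 53.1 CPM without and 51.7 with Dox in KH2 and 233 and 53.8 in tetO-Msi1, so that its call rests on 1 untreated library that stands apart. Rnps1 is a component of the exon junction complex, Rbm22 a catalytic-stage factor, and Qk the RNA-binding protein Quaking, and these 3 were named after their values were seen.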

How the data were processed

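RNA-Seq and Ribo-Seq reads had been aligned by the authors with TopHat and Bowtie to mm9 (versions not given in the sources used here). The deposited tables hold read counts for each gene, with footprints counted over constitutive coding exons, and RPKM that the authors computed from those counts, the listed lengths and library totals, which for footprints were 8.37 M to 28.1 M reads and not the counted footprints. All columns of samples were used (0 left out), and 2 technical replicates were summed. Nothing in the labels says that other libraries are replicates.

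Counts were tested with edgeR 4.0.16 (R 4.3.3; quasi-likelihood, TMM, Benjamini-Hochberg over all genes tested, threshold 0.05). RNA-Seq genes needed a CPM of 1 in 2 libraries, and footprint and TE genes more than 5 reads in every library. Tests had 1 to 3 residual degrees of freedom. Line or stage was a block, apart from the floxed comparison, and TE was the interaction of assay and treatment. DESeq2 1.42.0, other filters, pseudocounts, limits and left-out lines were alternatives. Scripts were tested on simulated counts. Single pairs used deposited RPKM with 0.5 added and a mean RPKM of at least 1, with 95% counting intervals, and TE pairs also needed an mRNA change under 1.5-fold. RNA-Seq depth was 7889966 to 60791605 counted reads and Ribo-Seq depth 657288 to 6381242. UTRs and repeated 30-mers were read from NCBIM37 with GENCODE annotation (Python 3.11.15).

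Named genes were Prpf3, the 10 highest mRNAs, all genes called in a test or, above 10, the 5 largest rises and 5 largest falls, up to 3 a direction in each pair past its limit with enough reads, the 5 highest and 5 lowest TEs, and genes listed at 0. Members and lists were chosen with earlier results of these data known.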

Additional observations from a re-analysis of the deposited data

Results flagged for a closer look

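The mRNA of Snrpf moved in opposite directions with Dox in different lines. Its log2 change was 0.93 in tetO-Msi2 at E12.5, -0.31 in tetO-Msi1 at E12.5 and -0.18 in tetO-Msi1 at E13.5. Each value compares 1 library with 1 library, and the difference between the lines was not tested. In KH2, without a transgene, the change was 0.55.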

How the results depend on the processing

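For Dox in tetO-Msi1, 0 splicing genes were called with DESeq2, without the stage block or less the KH2 response. For Dox in 3 lines, 3 were called without a filter on low counts, and leaving out 1 line gave 0 to 5. For 4-OHT mRNA, 4 were called without that filter. For 4-OHT footprints, 0 were called with DESeq2 or without the line block, and for 4-OHT TE 1 with DESeq2. Among genes with at most 10% repeated 30-mers, 26 were called between stages and 27 between line types, and leaving out 1 line gave 36 to 45 for line types. In single pairs, a 2-fold limit gave 0 in place of 5 mRNA changes and 60 in place of 32 TE changes, and centring on all genes left 2 TE changes. The TE level of genes with at most 10% repeated 30-mers lay at 0.22 in C1 and at -0.19 in C4. In footprints, floxed against tet-inducible lines, leaving out 1 line gave 23 to 43 calls (24 without KH2) in place of 36 (the lone line of an arm is assumed to vary like the others). Snrpd2, lower in mRNA, was at 0.67 there and at 0.48 to 0.84 without 1 line (0.63 without C1, 0.74 without C4, 0.48 without KH2, 0.84 without tetO-Msi1), and Hnrnpl was at 0.043 without C4. Among the alternatives for single named genes, 217 left the call as it was, 15 lost it and these 6 reversed. The cause of these changes was not tested, apart from the smaller number of genes under the repeat limit. The repeat limit, the footprint comparison and its left-out lines were chosen after seeing the data. Shares of all genes called under these alternatives are not given, so the counts are not set against all genes. Leaving out a library from the blocked tests on 4 libraries leaves no residual degrees of freedom and was not run as a test. Footprint depth limits genes such as Prpf3.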
